A study of Mus musculus with 238 samples.

Results

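Hmgb1, Hmgb2 and Hmgb3, the 3 expressed genes of the high mobility group B family, were followed through bulk RNA sequencing of 15 brain regions and liver of old mice. They are 3 of the 21076 gene rows of the count table and were read in all 238 libraries. The members were chosen by name, with treatment results of Hmgb3 in these data known. The contrast that led to the choice is not recorded. It was taken to be the higher Hmgb3 count in brain of dietary restricted mice. The brain values of Hmgb3 in the diet experiment are therefore a description and carry no test. Its plasma and liver values and all values of Hmgb1 and Hmgb2 were tested. The plasma and liver tests of Hmgb3 depend on that assumption. All mice were C57BL/6JN and 19 months old. In the diet experiment, 5 females were dietary restricted (aDR, with the liver libraries labelled DR) and 4 females were fed freely (AL, ad libitum), with 131 brain and 9 liver libraries. In the plasma experiment, 3 males received plasma of young mice (YMP) and 4 males received PBS by retro-orbital injection, with 98 brain libraries. Sex and experiment cannot be told apart in these groups. All libraries came from homogenised tissue, so fewer cells of a type and less RNA per cell cannot be told apart.

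The HMGB proteins are abundant nuclear proteins that bend DNA through a pair of HMG boxes and help other factors to reach chromatin. HMGB1 is present in nearly every cell type, and once outside the cell it acts as an alarm signal through receptors such as RAGE and the Toll-like receptors. HMGB2 is known for its high level in dividing cells, including neural stem and progenitor cells. HMGB3 is encoded on the X chromosome, is high in the embryo and is known from blood stem cells, where it keeps cells in an undifferentiated state.

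The genes lie at chr5:149046702-149184489 on the minus strand (Hmgb1), chr8:57511907-57515999 on the plus strand (Hmgb2) and chrX:71555918-71560676 on the plus strand (Hmgb3), in the GRCm38 annotation GENCODE vM21. The longest coding transcript of each has 5 exons. It measures 2838 bases for Hmgb1, 2628 for Hmgb2 and 1743 for Hmgb3. The family has left processed copies in the genome. The annotation names 14 pseudogenes after Hmgb1, 0 after Hmgb2 and 1 after Hmgb3, and 0 of these had a row in the count table. Of all windows of 50 bases in the longest coding transcript, 40.9% for Hmgb1, 21.9% for Hmgb2 and 34.2% for Hmgb3 also occurred in a transcript of another annotated gene. How reads that match several places were counted is not given in the sources used here, so the levels of all 3 genes are uncertain to that extent. Exons of Hmgb1 are overlapped by those of Mm2pr and Uspl1, whose reads cannot be told apart from those of Hmgb1 without strand. Exons of Hmgb2 and Hmgb3 are overlapped by 0 other genes.

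The stretches before the start sites are shown because the family shares a feature there that the choice of members did not use. The letters CCAAT, in capitals, recur in each of them on the strand of the gene. The letters TTTGAA occur on that strand 1 time in Hmgb2 and 1 time in Hmgb3. A further copy of TTTGAA in Hmgb2, on the other strand, appears as TTCAAA. The sequences are those of RefSeq on GRCm38.p6, written 5′ to 3′ on the strand of the gene: chr5:149053058-149053260 (minus strand), chr8:57511593-57511842 (plus strand) and chrX:71555667-71555916 (plus strand).
Hmgb1: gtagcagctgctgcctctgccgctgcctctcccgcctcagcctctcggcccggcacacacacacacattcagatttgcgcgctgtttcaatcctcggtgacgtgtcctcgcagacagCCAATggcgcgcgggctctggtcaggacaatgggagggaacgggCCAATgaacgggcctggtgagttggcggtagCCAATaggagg
Hmgb2: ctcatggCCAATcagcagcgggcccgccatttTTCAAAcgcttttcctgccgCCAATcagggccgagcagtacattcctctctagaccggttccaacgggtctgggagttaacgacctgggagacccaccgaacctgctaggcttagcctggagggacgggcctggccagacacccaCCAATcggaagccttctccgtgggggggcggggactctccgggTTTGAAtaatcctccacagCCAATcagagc
Hmgb3: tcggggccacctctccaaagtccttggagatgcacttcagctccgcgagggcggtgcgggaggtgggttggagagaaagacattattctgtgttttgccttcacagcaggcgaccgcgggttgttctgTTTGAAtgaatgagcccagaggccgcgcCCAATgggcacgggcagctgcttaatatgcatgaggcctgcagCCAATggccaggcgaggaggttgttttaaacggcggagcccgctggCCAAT
In the 250 bases before the start, Hmgb1 held 3 copies of CCAAT, Hmgb2 held 4 and Hmgb3 held 3. For Hmgb1, 47 bases at the far end of that window lie in an exon of the gene and are not shown, and a further start site of Hmgb1 had 0 copies. At least 3 copies, counted on both strands, were found in the same window of 874 of 27025 genes (3.23%), and at least 1 copy in 37.5%. The letters TTTGAA, searched on both strands, occurred in 18.3% of genes, 2 times in Hmgb2, 1 time in Hmgb3 and 0 times in Hmgb1. No copy of one motif overlapped a copy of the other. The copies nearest to the start began 11 bases before it in Hmgb1 and Hmgb2 and 5 bases before it in Hmgb3. CCAAT is the box bound by the factor NF-Y, and TTTGAA is the core of an element known from promoters of cell cycle genes. These matches describe the letters and do not show that a factor is bound.

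Library totals ran from 0.606 to 32.4 M counts with a median of 8.44 M, and 6 libraries held under 2 M. One library stood apart, the pons library of aDR mouse 67, in which the 10 largest genes took 23.4% of the counts against 5.72% to 7.12% in the other pons libraries of that experiment. Levels are given as CPM, counts scaled to the library total, with TMM factors over all libraries. The labelled tissues were checked against marker genes. The 4 hepatocyte markers summed to between 123118 and 179528 CPM in liver, where the 4 neuron markers summed to at most 44.6 CPM. In brain the neuron markers summed to between 2130 and 8799 CPM. Libraries labelled choroid plexus held between 3184 and 5779 CPM of the neuron markers, and between 136 and 15488 CPM of the 5 markers of plexus epithelium. The same plexus markers reached 18242 CPM in SVZ and 17654 CPM in corpus callosum. They also summed to between 6762 and 16160 CPM in liver, so the sum is not specific to plexus tissue.

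Levels in brain regions were compared first, in control mice, with AL and PBS mice as separate sets of animals. Per kilobase of the longest coding transcript, Hmgb1 was by far the highest of the 3 genes. Its region means ran from 58.1 to 93.0 CPM per kb in AL mice, against 5.97 to 30.9 CPM per kb for Hmgb3 and 1.43 to 4.76 CPM per kb for Hmgb2. The most abundant gene varied least between regions. Hmgb1 differed by 1.601-fold between its highest and lowest region in AL mice and by 1.57-fold in PBS mice. Hmgb2 differed by 3.32-fold and 3.53-fold, and Hmgb3 by 5.18-fold and 4.39-fold. Each gene kept its own region profile in both sets of mice. The Pearson correlation of region means between AL and PBS mice was 0.95 for Hmgb1, 0.96 for Hmgb2 and 0.97 for Hmgb3, over 15 regions. Between different members it lay between -0.31 and 0.33. These correlations are descriptions over points that share mice, libraries and depth. The family's Hmgb4, a gene known from testis, had 17 counts in all, spread over 15 libraries, and was not tested.

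**Figure D1:**
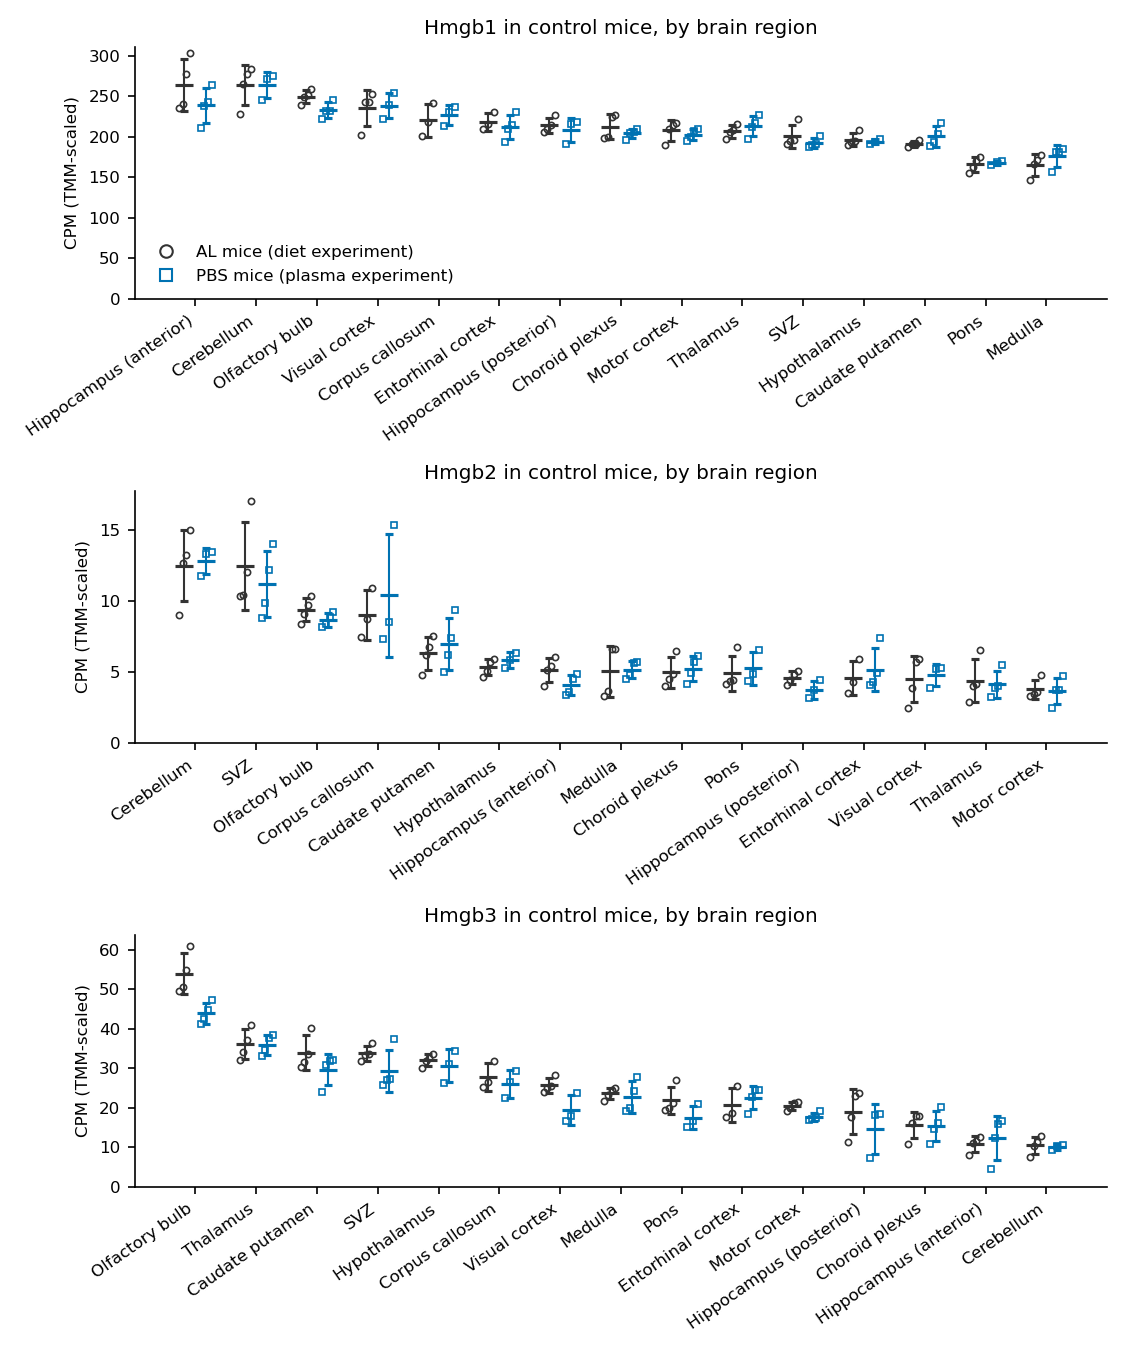
Levels of Hmgb1, Hmgb2 and Hmgb3 in the brain regions of control mice. Each open symbol is 1 library (y axis: TMM-scaled CPM from 0), bars are the mean ± SD, regions are ordered by the AL mean of each gene, circles are AL mice and squares are PBS mice. Hmgb3 ran from 53.9 CPM in olfactory bulb to 10.4 CPM in cerebellum of AL mice, while Hmgb1 varied by 1.601-fold.

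Hmgb3 was highest in olfactory bulb. The AL libraries of that region held 50.5, 49.5, 60.9 and 54.8 CPM, and the PBS libraries 42.5, 47.2, 41.2 and 44.7 CPM. It was lowest in cerebellum, with 12.7, 10.2, 11.3 and 7.46 CPM in AL mice and 10.3, 10.5 and 9.24 CPM in PBS mice. No library of the one region came near any of the other, a description of regions picked as highest and lowest by these values. Against the mean of the other regions, olfactory bulb was higher by 1.24 on the log2 scale (SE 0.10, edgeR adjusted p 1.66e-15) in AL mice and by 1.11 (SE 0.13, adjusted p 2.41e-09) in PBS mice. Cerebellum was lower, with log2 differences of -1.28 (SE 0.13, adjusted p 5.97e-12) and -1.22 (SE 0.20, adjusted p 1.27e-06). Thalamus, caudate putamen, SVZ and hypothalamus were also called higher in both sets, with log2 differences of 0.47 to 0.82. Both hippocampal regions and choroid plexus were called lower in both sets. The anterior hippocampus had the lower mean of the hippocampal regions, 10.8 ± 1.97 CPM (SD, n = 4) in AL mice against 18.9 ± 5.70 CPM (SD, n = 4) in the posterior part. In all, 9 of 15 regions were called for Hmgb3 in each set of mice (5 higher, 4 lower), and all 9 were called the same way in both. Over all genes and regions, 48.4% of these contrasts were called in AL mice and 45.4% in PBS mice. Of the 14 pairs of regions next to each other in the order, 2 were called for Hmgb3 in AL mice, olfactory bulb above thalamus by 0.54 (edgeR adjusted p 0.00124) and choroid plexus above anterior hippocampus by 0.54 (adjusted p 0.0144). In PBS mice 0 of 14 were called, with olfactory bulb above thalamus by 0.27 (adjusted p 0.241). Over all genes and the pairs along the orders of the 3 members, 43.6% were called in AL mice and 39.8% in PBS mice. Each order was made from the same libraries, so neighbours lie close for that member by construction. For other genes the pairs are arbitrary, so these shares do not show that the members differ less between regions. The posterior hippocampus was not called in AL mice without mouse 68 (log2 difference -0.11, adjusted p 0.530), without mouse 69 (-0.27, adjusted p 0.165) or with no filter on low counts (-0.29, adjusted p 0.0558), nor in PBS mice without mouse 76 (-0.30, adjusted p 0.110). In PBS mice, caudate putamen, choroid plexus, hypothalamus and SVZ each lost the call without 1 or more of the mice, mouse 72, 80 or 84.

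Hmgb2, the member known from dividing cells, was highest in cerebellum and SVZ. Cerebellum held 12.7, 13.2, 9.05 and 15.0 CPM in AL mice and 13.3, 13.4 and 11.8 CPM in PBS mice. SVZ held 12.03, 10.5, 17.1 and 10.4 CPM in AL mice and 12.2, 9.87, 8.78 and 14.0 CPM in PBS mice. Motor cortex was the lowest region in both sets, at 3.76 ± 0.678 CPM (SD, n = 4) and 3.64 ± 0.945 CPM (SD, n = 4). Every library of SVZ and cerebellum lay above every control library of motor cortex, whose highest value was 4.77 CPM. These regions were picked as highest and lowest by the control values, so the gap is a description. Cerebellum was above the mean of the other regions by 1.11 (SE 0.15, edgeR adjusted p 8.29e-09) in AL mice and by 1.10 (SE 0.14, adjusted p 1.10e-08) in PBS mice. SVZ was higher by 1.16 (SE 0.15, adjusted p 1.11e-08) and 0.99 (SE 0.13, adjusted p 9.02e-08). Olfactory bulb and corpus callosum were also called higher in both sets, and motor cortex and thalamus lower. In PBS mice both hippocampal regions were called lower as well, and the anterior part was not without mouse 84 (adjusted p 0.0713). Corpus callosum in AL mice was not called without mouse 69 (log2 difference 0.52, adjusted p 0.149), and thalamus not without mouse 63, 66 or 69 (adjusted p 0.138, 0.238 and 0.149). Such calls of a region against the others were common, at 48.4% of all genes and regions in AL mice and 45.4% in PBS mice. Of the 14 neighbouring pairs 0 were called for Hmgb2 in either set by edgeR. For all genes and the pairs along the members' orders, 43.6% were called in AL mice and 39.8% in PBS mice. The pairs of Hmgb2 lie close for that gene by construction, so these last shares are not a like background.

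The other genes of dividing cells did not share the whole profile of Hmgb2. In SVZ, 11 of 15 proliferation genes were called higher in AL mice and 13 of 15 in PBS mice, with list medians of 0.97 and 1.08 beside 0.016 and 0.013 for all genes tested. Calls in either direction were common in these contrasts, at 48.4% of all genes and regions in AL mice and 45.4% in PBS mice. In SVZ 3739 of 15324 genes were called higher in AL mice and 4107 of 15415 in PBS mice. Top2a, a topoisomerase of dividing cells, was higher there by 2.54 and 2.81. In corpus callosum, 9 and 10 of the 15 were called higher, with list medians of 0.79 and 0.72, beside 3832 and 3487 of all genes. In cerebellum, where Hmgb2 was as high as in SVZ, 3 of the 15 were called higher and 2 lower in each set, beside 5052 and 4798 of all genes called higher, and the list medians were 0.015 and -0.019. Mki67, the standard marker of cycling cells, was lower in cerebellum of AL mice (log2 difference -1.01, edgeR adjusted p 0.0372) and differed there by -0.40 in PBS mice (adjusted p 0.506). The genes of young neurons gave a further pattern. All 7 of the neuroblast list were called higher in olfactory bulb, the region in which Hmgb3 was highest, and in SVZ, in both sets of mice. In olfactory bulb 5195 and 5329 of all genes were called higher. In olfactory bulb the list medians were 4.64 and 4.81, with Dcx, a microtubule protein of migrating neurons, higher by 3.87 and 3.54. In cerebellum 6 of the 7 were called lower in AL mice and 3 in PBS mice, beside calls in either direction for 48.4% and 45.4% of all genes and regions. The part of these cells in the levels of the members was not tested.

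Hmgb1 was the most even of the 3. Its highest means were those of anterior hippocampus (264 ± 31.9 CPM, SD, n = 4) and cerebellum (263 ± 25.0 CPM, SD, n = 4) in AL mice, and of cerebellum (264 ± 15.98 CPM, SD, n = 3) in PBS mice. Its lowest were those of medulla (165 ± 13.2 CPM, SD, n = 4) and pons (166 ± 9.05 CPM, SD, n = 4) in AL mice. Pons of PBS mice held 170, 165 and 168 CPM. The highest library of medulla and pons among control mice was 185 CPM and the lowest library of cerebellum 228 CPM, so these regions did not overlap. They were picked as lowest and among the highest by these values, so the gap is a description. Medulla differed from the other regions by -0.39 (SE 0.06, edgeR adjusted p 9.48e-08) and pons by -0.37 (SE 0.06, adjusted p 2.54e-07) in AL mice, and by -0.26 (adjusted p 8.47e-06) and -0.33 (adjusted p 4.09e-06) in PBS mice. Cerebellum, anterior hippocampus, olfactory bulb and visual cortex were called higher in both sets, by 0.14 to 0.34. In each set 4 regions were called higher and 3 lower, and 6 of these calls were the same in both. Over all genes and regions, 48.4% of such contrasts were called in AL mice and 45.4% in PBS mice. Visual cortex lost the call in AL mice without mouse 63, 66 or 69 (adjusted p 0.0772, 0.0534 and 0.0883) and by library totals alone (adjusted p 0.0548). In PBS mice the calls of anterior hippocampus, olfactory bulb, visual cortex and SVZ were each lost without 1 or more of the mice, and the number called higher was 2 without mouse 80 and 2 without mouse 84. Processing also ended calls in PBS mice, that of SVZ by library totals alone (adjusted p 0.185) and with no filter on low counts (0.0641), and that of olfactory bulb with no filter (0.0666). Along the order, 1 of 14 neighbouring pairs was called in AL mice, caudate putamen above pons by 0.19 (adjusted p 0.0249), and 0 in PBS mice. Over all genes and the pairs of the 3 members, 43.6% were called in AL mice and 39.8% in PBS mice. The pairs are close for the member by construction, so these shares are not a like background.

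The genes whose region means were most like those of a member in AL mice were looked up among 14192 genes, by Pearson correlation over the 15 regions. For Hmgb3 they were Evl (0.84), Fam20c (0.84), Pcdh10 (0.83), Rnd3 (0.83) and Bcl2 (0.83), with 0.74 to 0.87 for the same genes in PBS mice. Evl is an actin regulator, Pcdh10 a protocadherin and Bcl2 an inhibitor of cell death. For Hmgb2 they were Zbtb5 (0.91), Agbl2 (0.91), Slain2 (0.91), Mcm7 (0.90) and Smurf2 (0.89), with 0.71 to 0.88 in PBS mice. Mcm7 is a subunit of the replication helicase. For Hmgb1 they were Rlf, Slc39a2, Crebbp, Parp2 and Eif5b, with 0.91 to 0.92 in AL mice and 0.79 to 0.88 in PBS mice. Crebbp is a histone acetyltransferase and Parp2 a poly(ADP-ribose) polymerase of DNA repair. These were the highest of many correlations over points that share libraries, and they are given without a test.

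Liver differed from brain in each member. In AL mice Hmgb2 reached 19.1 ± 5.17 CPM (SD, n = 4) in liver, above the highest brain region mean of 12.5 CPM. It was higher than the mean of the brain regions by 1.70 (SE 0.15, edgeR adjusted p 8.90e-15), and by 0.75 when libraries were scaled by their totals alone, on which scale its liver mean of 10.5 CPM lay within the brain region means of 3.73 to 13.6 CPM. Hmgb3 was lower in liver, at 13.5 ± 4.74 CPM (SD, n = 4), by a log2 difference of -0.72 (SE 0.15, adjusted p 1.58e-05), and of -1.67 by totals alone. The direction for Hmgb1 depended on the scaling. With TMM it was higher in liver by 0.45 (SE 0.055, adjusted p 1.24e-10), at 282 ± 24.1 CPM (SD, n = 4). By totals alone it was lower (log2 difference -0.49, adjusted p 8.06e-11), at 156 ± 11.5 CPM (SD, n = 4) against a median of 217 CPM over the brain regions. In this contrast 86.3% of 15876 genes were called.

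The effect of dietary restriction on the brain was examined next. Hmgb3, taken to be chosen on this contrast, was higher in aDR than in AL mice in 15 of 15 regions. Taken as 1 value per mouse over its brain regions, it was 4.56, 4.62, 4.601 and 4.58 log2 CPM in AL mice 63, 66, 68 and 69. In aDR mice 61, 62, 64, 65 and 67 it was 4.89, 4.94, 4.92, 4.92 and 4.84 log2 CPM. The lowest restricted mouse stood above the highest freely fed mouse, and the difference of the means was 0.31 on the log2 scale (SE 0.030). It ranged from 0.30 to 0.33 over all the alternatives that were run, including those that left out 1 mouse. Mouse values of the 2 diets did not overlap in 8.3% of the 15616 genes tested, and 1.75% were called by limma. These shares are background and do not test Hmgb3.

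**Figure D2:**
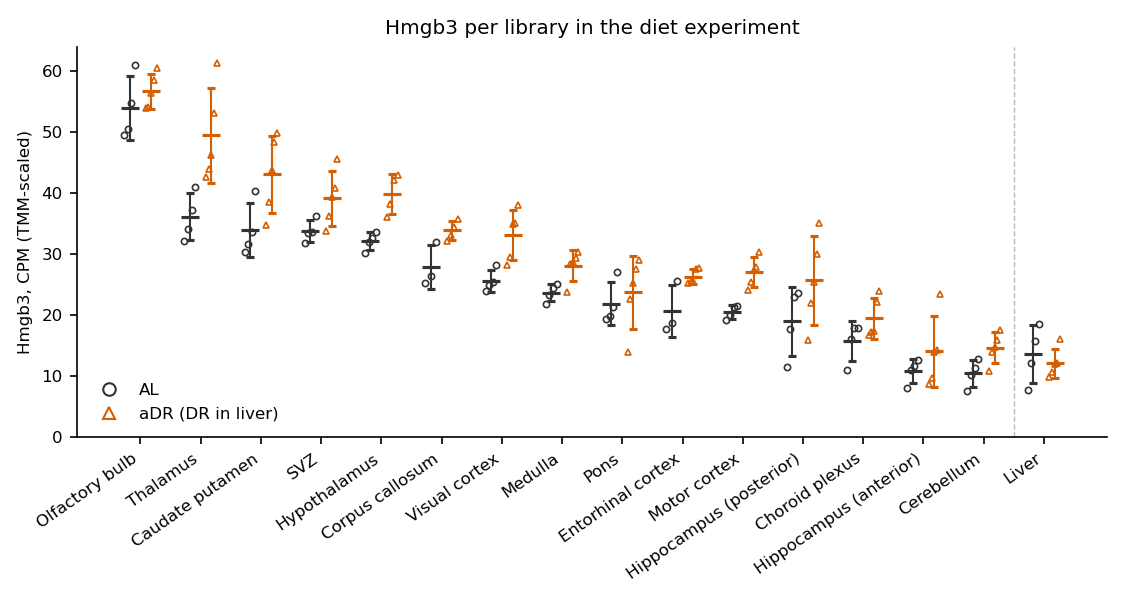
Hmgb3 in each library of the diet experiment. Open symbols are libraries (y axis: TMM-scaled CPM from 0), bars are the mean ± SD, circles are AL and triangles are aDR mice (DR in liver), and the dashed line sets liver apart. The aDR mean lay above the AL mean in all 15 brain regions and below it in liver.

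The regions are described here without a claim that the difference of Hmgb3 varied between them, since no test is given for this contrast. In motor cortex the AL libraries held 19.1, 21.4, 19.95 and 21.2 CPM and the aDR libraries 24.0, 30.3, 27.9, 27.3 and 25.3 CPM, a log2 difference of 0.41 (SE 0.083). The 4 markers of oligodendrocyte precursors were lower in the same aDR libraries, at 45.7 to 52.2 CPM against 53.8 to 57.7 CPM, and their part in the Hmgb3 value was not tested. In visual cortex they held 25.4, 23.9, 28.16 and 24.9 CPM against 35.04, 37.9, 34.8, 29.5 and 28.20 CPM (0.35, SE 0.099). The groups did not overlap in either cortex, though AL mouse 68 and aDR mouse 67 nearly met in visual cortex. In thalamus the AL libraries held 34.1, 32.1, 37.1 and 40.9 CPM and the aDR libraries 46.2, 42.6, 61.2, 53.1 and 43.9 CPM, a difference of 0.45 (SE 0.12). Hypothalamus held 33.6, 31.8, 30.1 and 32.6 CPM in AL mice and 38.1, 42.2, 42.9 and 36.0 CPM in aDR mice (0.32, SE 0.082). Corpus callosum, with 3 and 4 libraries, was the remaining region without overlap (0.27, SE 0.10). The groups thus stood apart in 5 of 15 regions, beside 3.07% of all genes and regions tested. This count has no weight here, because the gene was taken to be chosen on this contrast and the regions come from the same 9 mice.

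Cerebellum, the region with the least Hmgb3, had the largest log2 difference, 0.47 (SE 0.17), with 12.7, 10.2, 11.3 and 7.46 CPM in AL mice and 13.9, 15.9, 14.7, 17.5 and 10.7 CPM in aDR mice. Its groups overlapped through aDR mouse 67. Olfactory bulb, the region with the most Hmgb3, had the smallest, 0.075 (SE 0.067), with aDR libraries of 56.3, 60.5, 54.1, 53.9 and 58.4 CPM inside the AL range of 49.5 to 60.9 CPM. Pons also overlapped (0.14, SE 0.20). Its lowest library, at 13.9 CPM, was that of aDR mouse 67, the library with the high share of counts in 10 genes. Without that library the difference over the brain was 0.32. The anterior hippocampus spread widely in aDR mice, with 14.2, 9.67, 13.9, 8.69 and 23.4 CPM. No order of the differences by level is claimed. Thalamus, with the AL mean next below that of olfactory bulb (36.0 CPM), differed by 0.45.

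Hmgb1 was higher in aDR mice in 14 of 15 regions. Its mouse values were 7.78, 7.77, 7.77 and 7.72 log2 CPM in AL mice and 7.88, 7.91, 7.85, 7.84 and 7.84 log2 CPM in aDR mice. The groups did not overlap, as in 8.3% of all genes, but the difference was small, 0.10 on the log2 scale (SE 0.024), and the test over mouse values did not pass the threshold (limma adjusted p 0.0644). A fit of all libraries with the mouse as a replicate block, in voom and limma, gave the same difference of 0.10 with an adjusted p of 0.000440. That fit called 9.45% of all genes, where the test over mouse values called 1.75%. It used a single within-mouse correlation shared by all genes, so its p does not measure the spread of Hmgb1 itself between mice. Over all alternatives the adjusted p ran from 5.91e-06 to 0.181. The lowest came from voom and limma with no replicate block, which treats libraries of 1 mouse as independent. Within single regions edgeR called Hmgb1 in 0 of 15, against 0.0525% of all genes and regions, and DESeq2 also in 0, while 3 regions had an unadjusted p under 0.05. In cerebellum the AL libraries held 284, 277, 228 and 265 CPM and the aDR libraries 302, 285, 314, 304 and 304 CPM, a difference of 0.19 (SE 0.063, adjusted p 0.233). The 5 endothelial markers of these cerebellum libraries were lower in aDR mice without overlap, at 125.4 to 136.7 CPM against 137.3 to 177.5 CPM, and their part in the values of Hmgb1 and Hmgb3 there was not tested. In posterior hippocampus they held 205, 210, 227 and 214 CPM against 245, 256, 265, 243 and 227 CPM (0.22, SE 0.071, adjusted p 0.9996). Neither region showed an overlap, which held for 3.07% of all genes and regions, although AL mouse 68 and aDR mouse 67 lay close together in posterior hippocampus. SVZ had 196, 194, 221 and 190 CPM in AL mice and 228, 250, 212, 222 and 227 CPM in aDR mice, a difference of 0.19 (SE 0.070, adjusted p 0.981). Olfactory bulb was the 1 region with a negative value, -0.0067.

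Hmgb2 did not move in one direction with diet. Its mouse values were 2.62, 2.62, 2.64 and 2.66 log2 CPM in AL mice and 2.73, 2.73, 2.73, 2.47 and 2.90 log2 CPM in aDR mice. The AL mice were close together. Of the aDR mice, mouse 65 lay below all of them and the other 4 above all of them. The difference was 0.076 (SE 0.075, limma adjusted p 0.671). Leaving out aDR mouse 65 made it 0.14, and leaving out aDR mouse 67 made it 0.030. The fitted difference was positive in 10 regions and negative in 5, edgeR and DESeq2 called 0 (edgeR called 0.0525% of all genes and regions), and 0 had an unadjusted p under 0.05 in edgeR. The regions of high Hmgb2 were not among the larger differences: 0.086 in cerebellum and 0.016 in SVZ, against 0.32 in pons and 0.28 in caudate putamen. Whether the diet effect differed between regions was tested for Hmgb1 and Hmgb2 with an edgeR F test of region by diet. Neither was called (adjusted p 1 for both), and 0.0128% of all genes were.

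**Figure D3:**
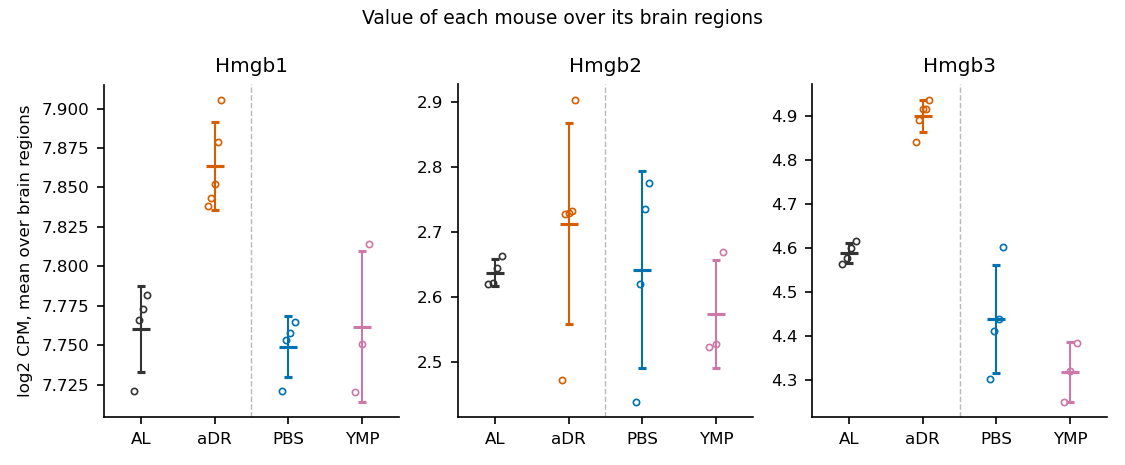
One value per mouse over its brain regions for the 3 members. Points are mice (y axis: log2 CPM, mouse term of a fit on region and mouse, not starting at 0), bars are the mean ± SD, and the dashed line separates the diet and plasma experiments, which were normalised separately. Hmgb3 was 4.84 to 4.94 in aDR mice and 4.56 to 4.62 in AL mice, and Hmgb1 groups differed by 0.10 without overlap.

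Plasma of young mice gave no call for any member across the brain. Hmgb3 was 4.44, 4.30, 4.41 and 4.602 log2 CPM in PBS mice 72, 76, 80 and 84, and 4.32, 4.39 and 4.25 log2 CPM in YMP mice 73, 77 and 81. The groups overlapped, and the difference was -0.12 (SE 0.073, limma adjusted p 0.688), opposite in sign to the diet value. Hmgb2 differed by -0.068 (SE 0.097, adjusted p 0.855) and Hmgb1 by 0.012 (SE 0.034, adjusted p 0.930). The sign of Hmgb1 turned without YMP mouse 73 (-0.0097) and without both hippocampal regions (-0.0020), and that of Hmgb2 turned with the mouse as a replicate block (0.0071). For all genes the share called by limma was 0%, or 0 of 15768, with 1317 at an unadjusted p under 0.05 and 468 called by voom with the block. Mouse values did not overlap in 10.1% of genes, and those of the 3 members did overlap.

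**Figure D4:**
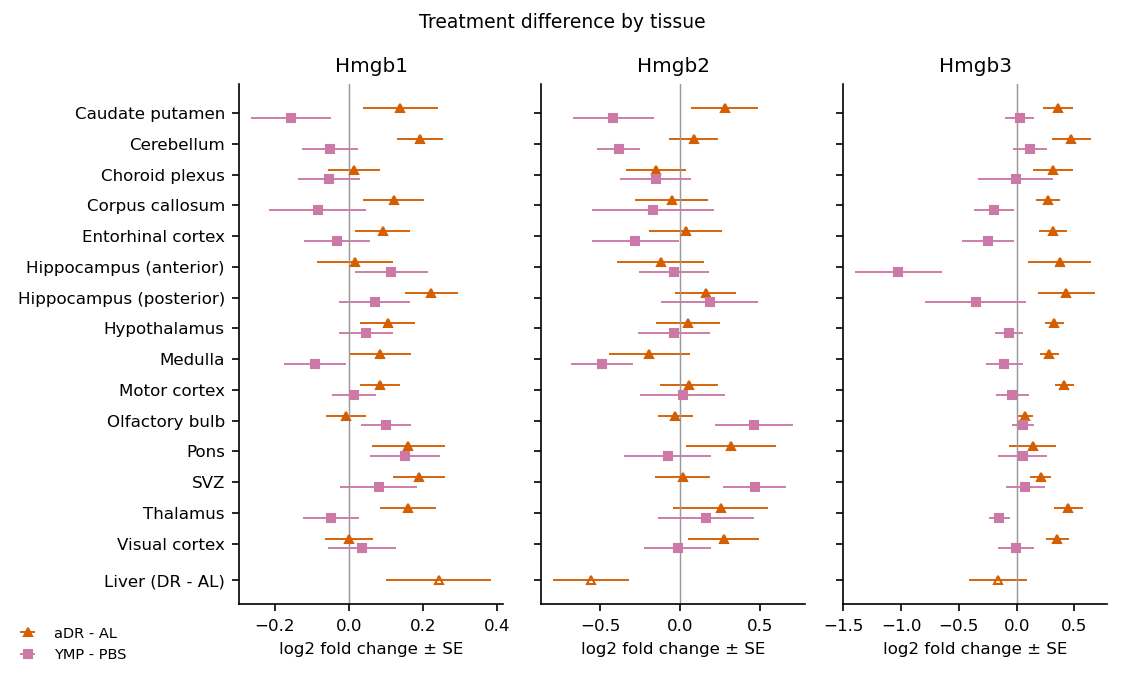
Treatment difference of the 3 members by tissue. Points are log2 fold changes from edgeR (x axis, with its own scale for each gene) and bars are ± SE, triangles are aDR minus AL (open for liver, DR minus AL) and squares are YMP minus PBS. Hmgb3 with diet lay right of 0 in all 15 regions, from 0.075 in olfactory bulb to 0.47 in cerebellum, while plasma values lay on both sides.

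Within regions of the plasma experiment edgeR called 0 of 15 for each member and DESeq2 also 0, against 0.0127% of all genes and regions called by edgeR. An unadjusted p under 0.05 occurred in 0 regions for Hmgb1, 3 for Hmgb2 and 1 for Hmgb3. The largest difference was that of Hmgb3 in anterior hippocampus, -1.02 (SE 0.37, adjusted p 0.683). PBS mice 72, 76, 80 and 84 held 16.5, 4.45, 12.2 and 15.9 CPM there and YMP mice 73, 77 and 81 held 5.94, 6.56 and 6.32 CPM. The YMP libraries lay close together, and PBS mouse 76 lay below all of them. Without that mouse the difference was -1.30, and without PBS mouse 72 it was -0.83. Of the marker lists, 2 did not overlap between the groups there. The 5 oligodendrocyte markers summed to between 7063 and 13321 CPM in PBS and between 6232 and 6971 CPM in YMP mice, and the 7 neuroblast genes to between 83.6 and 112 CPM and between 117 and 125 CPM. The part of these markers in the Hmgb3 difference was not tested.

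Hmgb2 was higher in SVZ of YMP mice, by 0.47 (SE 0.20, edgeR adjusted p 0.359), with 17.5, 16.8 and 13.4 CPM against 12.2, 9.87, 8.78 and 14.0 CPM in PBS mice. The lowest YMP library lay below PBS mouse 84. The 15 proliferation genes summed to between 105 and 153 CPM in YMP and between 107 and 119 CPM in PBS mice. The plexus markers of these SVZ libraries summed to between 22.8 and 43.6 CPM in YMP and between 2565 and 18242 CPM in PBS mice, with 0 of the 5 markers without a count in either group. The 5 astrocyte markers summed to between 1446 and 1753 CPM in YMP and between 1870 and 2107 CPM in PBS mice. The part of these markers in the Hmgb2 value was not tested. In cerebellum Hmgb2 was lower, at 10.7, 9.66 and 9.004 CPM against 13.3, 13.4 and 11.8 CPM (-0.38, SE 0.14, adjusted p 0.447). In medulla it was also lower, at 4.16, 3.51 and 3.57 CPM against 4.77, 4.51, 5.64 and 5.68 CPM (-0.49, SE 0.19, adjusted p 0.498). The 5 microglia markers of these medulla libraries were lower without overlap as well, at 228 to 245 CPM in YMP and 274 to 361 CPM in PBS mice, and the plexus markers lay at 4.78 to 5.38 CPM and 5.93 to 306 CPM. Their part in the Hmgb2 value was not tested. The groups did not overlap in cerebellum and medulla for Hmgb2 and in pons for Hmgb1, where YMP mice were higher (187, 179 and 195 CPM against 170, 165 and 168 CPM). Such separation occurred in 9.34% of all genes and regions. Olfactory bulb spread widely for Hmgb2 in YMP mice, with 10.6, 5.19 and 15.7 CPM. Over all 3 mice the difference was 0.46 (adjusted p 0.610). Without YMP mouse 77 the higher level there was called (0.83, adjusted p 0.0103), and without YMP mouse 81 the sign turned (-0.50, adjusted p 0.840). The first of these fits rests on YMP mice 73 and 81 alone. The lowest Hmgb2 count among the 3 YMP libraries of olfactory bulb was 7. The edgeR F test of region by plasma called none of the 3 members (adjusted p 1 for each) and 0.786% of all genes. It was 0.263 for Hmgb3 without PBS mouse 76 and 0.674 for Hmgb2 without YMP mouse 77.

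In liver of the diet experiment edgeR called 0 of the 3 members, DESeq2 called 0 and 1 had an unadjusted p under 0.05, in a comparison that called 0.22% of 11815 genes. Hmgb2 was lower in restricted mice, with 10.4, 11.9, 14.5, 17.3 and 10.1 CPM against 13.7, 15.6, 24.1 and 22.8 CPM in AL mice. The groups overlapped, and the difference was -0.56 (SE 0.24, adjusted p 0.498). The 5 blood cell markers were also lower, at 110 to 176 CPM in DR and 177 to 388 CPM in AL livers, and their part in the Hmgb2 value was not tested. The 15 proliferation genes summed to between 183 and 231 CPM in DR and between 175 and 238 CPM in AL livers. Hmgb1 held 291, 375, 358, 332 and 278 CPM in DR and 302, 286, 247 and 292 CPM in AL mice (0.24, SE 0.14, adjusted p 0.682). Hmgb3 held 15.98, 11.9, 9.79, 12.03 and 10.5 CPM in DR and 15.8, 12.1, 7.56 and 18.5 CPM in AL mice (-0.16, SE 0.25, adjusted p 0.938), and its sign turned without AL mouse 69 (0.027). No test of this value against that of Hmgb3 in brain is given, because the brain value was taken to have led to the choice of the gene. Liver and brain values were also subtracted within each mouse, and this gave a difference of diets of 0.13 (SE 0.15, limma adjusted p 0.934) for Hmgb1 and -0.59 (SE 0.27, adjusted p 0.627) for Hmgb2. Of all genes, 0.0705% were called in that test.

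Genes of related function were read across the brain in the same fits. Of 19 tested genes for other HMG proteins, 0 were called with diet by limma. Their median log2 difference was -0.018 beside -0.0062 for all genes tested, and the chromatin proteins Hmgn2 (0.079, adjusted p 0.391) and Hmgn1 (-0.0072, adjusted p 0.972), the mitochondrial DNA-binding protein Tfam (-0.032, adjusted p 0.652) and the FACT subunit Ssrp1 (0.0096, adjusted p 0.905) had small values. Among the tested linker histones, which compete with HMGB proteins for linker DNA, 0 of 5 were called and the median was -0.15. Of the 5 genes of the SET complex, a chromatin complex that contains HMGB2, 0 were called, with Set itself at 0.035. Of 10 receptors and binding partners of extracellular HMGB1, 1 was called, beside 1.75% of all genes. Cxcl12, a chemokine that forms a complex with HMGB1, was lower by a log2 difference of -0.32 (SE 0.047, adjusted p 0.0123). Ager, which encodes RAGE (0.13, adjusted p 0.757), Tlr4 (-0.070, adjusted p 0.703) and Tlr2 (0.060, adjusted p 0.856) were not called. The proliferation list had 0 of 15 and the neuroblast list 0 of 7 genes called. With plasma, 0 genes of these lists were called by limma.

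Among cell type markers, 3 of the 50 genes tested were called with diet, beside 1.75% of all genes, all of them lower in aDR mice: the endothelial genes Flt1 (-0.26, limma adjusted p 0.0158) and Cldn5 (-0.48, adjusted p 0.0192) and the microglial receptor gene Cx3cr1 (-0.13, adjusted p 0.0458). Marker sums were also taken as 1 value per mouse over its brain regions, as log2 of CPM plus 1. The sum of the 5 endothelial markers was 6.93 to 7.20 in AL and 6.79 to 6.94 in aDR mice. The 4 neuron markers ran from 12.1 to 12.3 in both groups, and the 5 astrocyte markers from 10.7 to 10.9 in AL and 10.6 to 10.8 in aDR mice. The 4 markers of oligodendrocyte precursors ran from 6.07 to 6.23 in AL and from 5.91 to 6.10 in aDR mice. The part of these markers in the Hmgb3 and Hmgb1 values was not tested. In the plasma experiment the mice of the treatments did not overlap for the plexus markers, at 4.86 to 6.41 in PBS and 3.46 to 4.49 in YMP mice, for the astrocyte markers, at 10.79 to 10.81 and 10.67 to 10.73, or for the hepatocyte markers, at 1.77 to 2.15 and 1.35 to 1.49. The hepatocyte markers lay near the floor in brain. Over the libraries of both experiments their median sum ran from 0.867 CPM in posterior hippocampus to 9.02 CPM in olfactory bulb. Of single genes, 10.1% did not overlap.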

How the data were processed

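The authors deposited 1 table of raw counts per gene for all libraries, whole numbers without normalization. RNA of homogenised tissue was made into Smart-Seq2 and Nextera XT libraries, per the labels' protocols, which do not mark strand. Reads were handled with Trim Galore 0.3.7, STAR 2.5.3a and DESeq2 on GRCm38, per the submitters' processing notes; the counting program and annotation are not given in the sources used here. Groups were taken from the labels.

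Counts were tested with edgeR 4.0.16 (quasi-likelihood, TMM scaling, filterByExpr) within each region and in liver, and between regions. Across brain, log2 CPM (prior count 2) were fitted on mouse and region, missing regions being filled by the fit, and the mouse terms were tested with limma 3.58.1 (trend). All p-values are two-sided and adjusted over all genes tested by Benjamini-Hochberg, with a threshold of 0.05. Those of treatment within a region or liver, and over mouse values, measure the spread between mice. Those of levels between regions, or of liver against brain, come from fits with the mouse as a block. They measure the spread of libraries within mice. The F test of region by treatment and the fit with no replicate block treat libraries of 1 mouse as independent. DESeq2 1.42.0, other scalings and filters, a replicate block and leaving out each mouse were the alternatives. R was 4.3.3, and the fits were tested on simulated data.

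Libraries of different regions that carry 1 mouse number come from 1 animal, so the number pairs regions but never treatments. The correlation of deviations was 0.045 within mice and -0.0056 between mice in the diet experiment, and 0.086 and -0.014 in the plasma experiment. The counts of all 357 replicate pairs differed beyond sampling noise. Depth, 0.606 to 32.4 M counts per library, and the spread between mice both limit precision. The 3 members are named in every region. Genes with a like profile are the 5 with the highest correlation in AL mice, among genes with a mean of at least 1 CPM. List genes are named where called across brain, at most 4 per list; Top2a, Mki67, Dcx, Hmgn1, Hmgn2, Tfam, Ssrp1, Set, Ager, Tlr2 and Tlr4 were added after their values were seen. The members and lists were chosen with earlier results of these data known.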

Additional observations from a re-analysis of the deposited data

Results flagged for a closer look

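In groups of 4 or 5 libraries, 4 of the 126 groups examined held a library that stood far from the rest of its group, where chance gives about 6.3. Hmgb1 in medulla was 206 CPM in aDR mouse 62, with 159 to 172 CPM in the other 4 aDR mice. Hmgb1 in medulla was also 156 CPM in PBS mouse 76, below the 181 to 185 CPM of the other PBS mice. Hmgb2 in pons was 6.74 CPM in AL mouse 68, against 4.11 to 4.42 CPM in the other AL mice. Hmgb3 in SVZ was 37.3 CPM in PBS mouse 84, against 25.8 to 27.2 CPM in the other PBS mice.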

How the results depend on the processing

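Hmgb1 across brain with diet kept its difference of 0.10 with the mouse as a replicate block (adjusted p 0.000440) and with no replicate block (0.10, adjusted p 5.91e-06), and both passed the threshold that the test over mouse values missed. The fit with no block treats libraries of 1 mouse as independent replicates of diet, so its p does not measure the spread between mice. The fit with the block shares a single correlation over all genes, so its p does not measure the spread of Hmgb1 itself between mice. Signs turned for Hmgb1 with plasma across brain without both hippocampal regions (-0.0020) and between -0.0097 and 0.032 when 1 mouse was left out, for Hmgb2 with plasma with the replicate block (0.0071), for Hmgb3 in liver between -0.34 and 0.027 when 1 mouse was left out, and for Hmgb1 in liver against brain by library totals alone (-0.49). With plasma, regions with a positive fitted difference numbered 5 to 8 for Hmgb1, 3 to 9 for Hmgb2 and 4 to 9 for Hmgb3, and those called for Hmgb2 numbered 0 to 1. Regions called lower for Hmgb2 in AL mice numbered 1 to 3, and regions called higher in PBS mice numbered 2 to 5 for Hmgb1 and 3 to 6 for Hmgb3. The causes were not tested. Genes called across brain with diet numbered 273, but 144 without the trend, 163 without both hippocampal regions, 165 with no filter on low counts, 1475 with and 2760 without the replicate block, and 52 (without AL mouse 66) to 311 (without aDR mouse 67) when 1 mouse was left out. With plasma they numbered 0, but 468 with and 2629 without the block. They numbered 11 without both hippocampal regions, 2 without PBS mouse 80 and 1 without the plasma libraries under 2 M counts. Of the alternative values of main comparisons, 456 were rated as unchanged. Tested values among them kept their direction and their side of the threshold. Counts of regions were rated so when they shifted only within a set ratio, so single regions could still change. Hmgb1 with diet, for example, was higher in 11 to 14 of 15 regions over the alternatives. The Hmgb3 brain difference with diet was rated so when it moved by less than the SD of its mouse values. Of the alternatives for the level in a single region, 31 ended the call, by leaving out a mouse, by library totals alone or with no filter on low counts, and 458 did not. The median CV over regions in AL mice was 20.1% for Hmgb2, the gene with the lowest counts, and 6.07% for Hmgb1; what part of it is counting error was not tested.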
